A study of Mus musculus with 3 samples.

Results

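Proneural and spinal progenitor factors are transcription factors that pattern dividing cells of the embryonic neural tube and start them on the path to becoming neurons. The 9 genes described here are Atoh1, Msx3, Olig3, Prdm13, Neurog1, Neurog2, Pax6, Olig2 and Nkx6-1. They were taken by symbol from the 32285 genes listed for each section, and each symbol matched 1 entry. The series holds 3 frozen sections of mouse embryonic axial skeleton, 1 for each of the stages E11.5, E12.5 and E13.5, profiled on Visium slides. On such a slide, RNA from a tissue section 10 µm thick is captured on barcoded spots 55 µm across and counted as UMIs, which stand for single captured molecules. With 1 section per stage there is no replicate, so stages are set side by side without a test and intervals cover counting error only. The sources used here give neither strain, sex nor the number of embryos. A difference between sections can be one of stage, of embryo or of the level at which the tissue was cut, which cannot be told apart.

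In the neural tube, signals from the roof plate (Wnt and BMP proteins) and from the floor plate (Shh) set up bands of progenitors, each marked by its own set of such factors. Atoh1, Olig3, Msx3 and Prdm13 are known from the dorsal bands, whereas Olig2 and Nkx6-1 are known from the ventral ones that give motor neurons and ventral interneurons. Neurog1 and Neurog2 drive neuronal differentiation in several bands and in sensory ganglia, and Pax6 is spread over much of the tube. For the comparisons below the first 4 genes form the dorsal set, Olig2 and Nkx6-1 the ventral set, and the other 3 are called broad.

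Spots with at least 1000 UMIs were used. The E11.5 section had 1561, the E12.5 section 1014 and the E13.5 section 1360, and their median depths were 27048, 24385.5 and 20943.5 UMIs. A spot covers several cells, so 2 genes in a spot need not be in the same cell, and fewer cells of a type and less RNA per cell cannot be told apart. The 3 sections share 434 to 704 barcodes per pair, because the barcodes mark array positions rather than cells. Spots rich in Sox1, Sox2, Sox3 and Hes5, which mark neural progenitors, are called progenitor spots here (at least 2 UMIs per 10000 from at least 2 of these genes). The E11.5 section had 255 (16.3% of spots) and the E12.5 section 73 (7.20%). The E13.5 section had 0, and these 4 genes together had 177 UMIs in it. Spots rich in genes of sensory and other peripheral neurons by the same rule, among them Tlx2, Prph and Pou4f1, are called ganglion spots and numbered 80, 80 and 124. The labels call the tissue bone, and Col2a1, the main collagen of cartilage, stood at 461, 1246 and 2601 CPM (UMIs scaled to a total of 1e+06) over the sections. Neural progenitors thus made up only some of the tissue, and few of their UMIs were seen in the E13.5 section.

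Summed, the 9 genes had 4330 UMIs in the E11.5 section, 1589 in the next and 106 in the last. Of the 106 UMIs at E13.5, 97 were of Nkx6-1, and the other 8 genes had 9 in all. At least 1 of the genes was in 57.0% of E11.5 spots, 39.3% of E12.5 spots and 5.88% of E13.5 spots. Within progenitor spots the median number of genes present was 3 of the 9 at both E11.5 and E12.5, and no spot held more than 7.

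**Figure D1:**
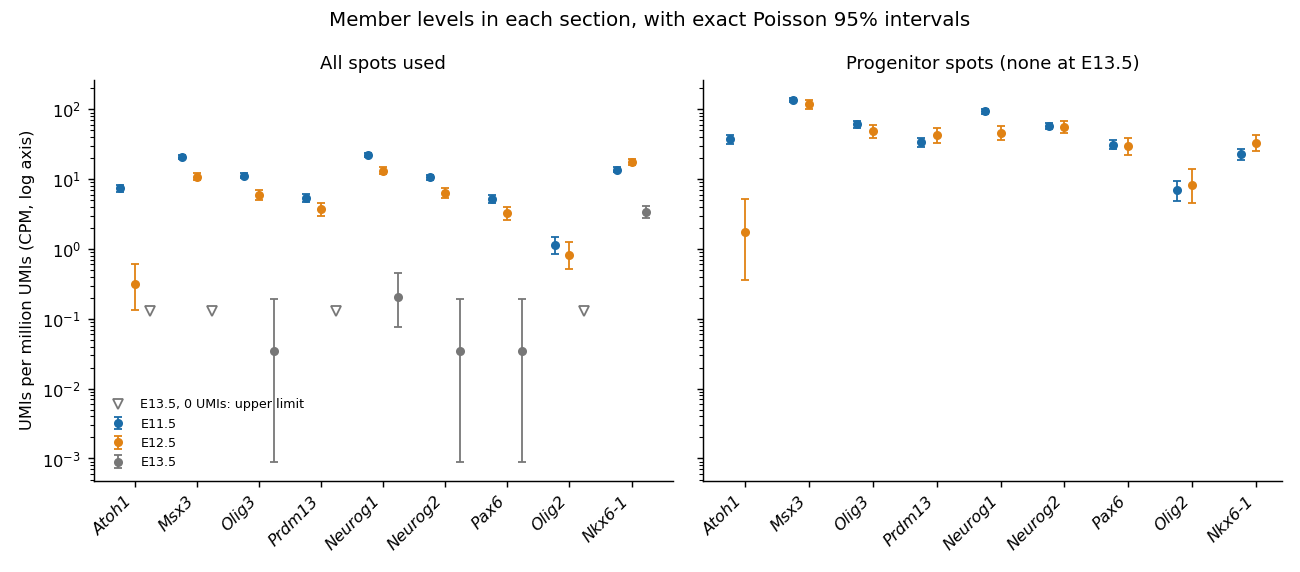
Level of each gene in each section in CPM (log axis), over all spots used (left) and over progenitor spots (right); points are section totals, bars exact Poisson 95% intervals, and open triangles the upper limit where 0 UMIs were counted. Atoh1 lies far lower at E12.5 than at E11.5 in both panels, most other genes lie close together in progenitor spots, and only Nkx6-1 stays above 1 CPM at E13.5.

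Among the dorsal genes, Atoh1, the factor of the most dorsal interneurons and of the rhombic lip of the hindbrain, changed most between the sections. Its 329 UMIs at E11.5 lay in 95 spots, the 8 at E12.5 in 6 spots, and none were counted in the E13.5 section, whose 3-UMI floor is 0.104 CPM. Its level was 7.42 CPM (95% interval 6.64 to 8.26) at E11.5 and 0.314 CPM (0.135 to 0.618) at E12.5, which is 23.6-fold lower (11.9 to 55.2). The difference was about as large within progenitor spots, at 37.3 CPM against 1.77 CPM, 21.1-fold lower (7.11 to 103). The 0 UMIs at E13.5 put Atoh1 at least 71.1-fold below its E11.5 level, with 3 UMIs as the floor. Up to 32 Atoh1 UMIs lay in a single spot at E11.5, and 63.8% of its UMIs there lay in progenitor spots.

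Msx3, a homeobox factor of the dorsal neural tube, had 932, 278 and 0 UMIs in the E11.5, E12.5 and E13.5 sections. Over all spots its level went from 21.0 CPM to 10.9 CPM, a ratio of 0.519 (0.452 to 0.594). In progenitor spots it was 136 CPM (126 to 146) and 117 CPM (102 to 135), a ratio of 0.866 (0.737 to 1.01) whose interval includes 1. With a progenitor threshold of 1 UMI per 10000 the ratio was 0.744 (0.639 to 0.864), whose interval excludes 1. Olig3, a bHLH factor of the dorsal-most bands, had 499, 153 and 1 UMIs. Its ratio of E12.5 to E11.5 was 0.534 (0.442 to 0.641) over all spots and 0.792 (0.615 to 1.01) in progenitor spots. Prdm13, which acts with Ptf1a in dorsal inhibitory neurons, had 240, 94 and 0 UMIs, with ratios of 0.682 (0.531 to 0.869) and 1.26 (0.947 to 1.66). As a set the 4 dorsal genes had a ratio of 0.464 (0.421 to 0.511) over all spots and 0.785 (0.697 to 0.881) in progenitor spots. For Msx3, Olig3 and Prdm13 the lower level over all spots at E12.5 went with fewer progenitor spots, and the level per UMI within progenitor spots moved much less than that of Atoh1.

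The broad genes followed the same course, with Neurog1 apart. Neurog2 had 472, 161 and 1 UMIs in the 3 sections, and in progenitor spots its 57.7 CPM at E11.5 and 56.6 CPM at E12.5 gave a ratio of 0.982 (0.773 to 1.24). Pax6 had 229, 83 and 1 UMIs, with 31.2 CPM and 29.5 CPM in progenitor spots, a ratio of 0.944 (0.675 to 1.30). Neurog1 had 975, 339 and 6 UMIs, and its progenitor level went from 93.7 CPM (85.9 to 102) to 46.0 CPM (36.4 to 57.4), a ratio of 0.491 (0.382 to 0.624). In ganglion spots, by contrast, Neurog1 stood at 68.5 CPM and 69.8 CPM, a ratio of 1.02 (0.821 to 1.26). At E13.5 ganglion spots still held 5 of its 6 UMIs, at 1.86 CPM (0.605 to 4.35), 37.4-fold below E12.5 (15.7 to 117).

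Of the ventral genes, Olig2, the factor of motor neuron progenitors, was sparse, with 50 UMIs in 36 spots of the E11.5 section, 21 in 12 spots of the next and none in the last. Its ratio of E12.5 to E11.5, 0.731 (0.417 to 1.24) over all spots and 1.19 (0.598 to 2.25) in progenitor spots, is too imprecise to give a direction. Nkx6-1, a homeobox factor of ventral progenitors and motor neurons that is also known from the pancreas, had 604, 452 and 97 UMIs in 333, 191 and 73 spots. It was the only one of the 9 genes with a higher level at E12.5 than at E11.5 over all spots, 17.7 CPM against 13.6 CPM, a ratio of 1.30 (1.15 to 1.47). In progenitor spots the ratio was 1.44 (1.03 to 1.99), and for both ventral genes together 1.38 (1.03 to 1.84). With a progenitor threshold of 1 UMI per 10000 these were 1.17 (0.894 to 1.53) and 1.16 (0.907 to 1.47), whose intervals include 1. The Nkx6-1 level at E13.5 was 5.26-fold below that at E12.5 (4.21 to 6.61), while Msx3 was at least 105-fold and Prdm13 at least 35.3-fold lower.

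The genes also differed in where their UMIs lay. Progenitor spots held 82.0% of the Msx3 UMIs at E11.5 and 71.6% at E12.5, 79.2% and 76.6% of those of Prdm13, and 78.0% and 66.7% of those of Olig2. For Neurog1 the share in progenitor spots went from 54.2% to 23.0% while that in ganglion spots went from 18.2% to 50.7%. The sensory ganglion genes stood at 337 CPM in E11.5 spots with Neurog1 against 137 CPM in those without, and at 799 CPM against 150 CPM at E12.5.

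Nkx6-1 was the exception, with 21.4% of its UMIs in progenitor spots at E11.5 and 12.4% at E12.5. Spots in the top 10% of each section for heart, liver, muscle or cartilage genes, outside progenitor and ganglion spots, served as a reference that should lack these factors. The top 10% was taken whatever the level of the list. The liver and heart lists summed to 12.3 and 91.3 CPM over the E12.5 section, against 765 and 1484 CPM at E11.5. The E12.5 liver and heart spots therefore need not hold these tissues. Of the 427 such spots at E11.5, 24.1% held Nkx6-1, against 20% of progenitor spots, with median depths of 26079 and 20803 UMIs. At E12.5 the shares were 19.1% and 24.7%. The counting intervals of progenitor and reference spots overlap at both stages, and the share was higher in the reference at E11.5 and in progenitor spots at E12.5. The kinds of reference spot differed from each other. In the cartilage spots, the share with Nkx6-1 was 32.7% (25.2 to 40.8) at E11.5 and 34.3% (25.2 to 44.4) at E12.5. In the muscle spots it was 11.4% (6.79 to 17.6) and 6% (2.23 to 12.6). For Msx3 the same reference stood at 9.37% against 66.7% in progenitor spots at E11.5, and at 2.53% against 57.5% at E12.5. For Prdm13 it stood at 3.75% against 40.0%, and 0.361% against 53.4%. With each spot thinned to 10000 UMIs (53 of 255 and 5 of 73 progenitor spots are shallower and were left out), the expected share of progenitor spots with Msx3 was 47.9% and 50.1%, with Prdm13 23.4% and 36.1%, and with Neurog1 44.1% and 22.1%.

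**Figure D2:**
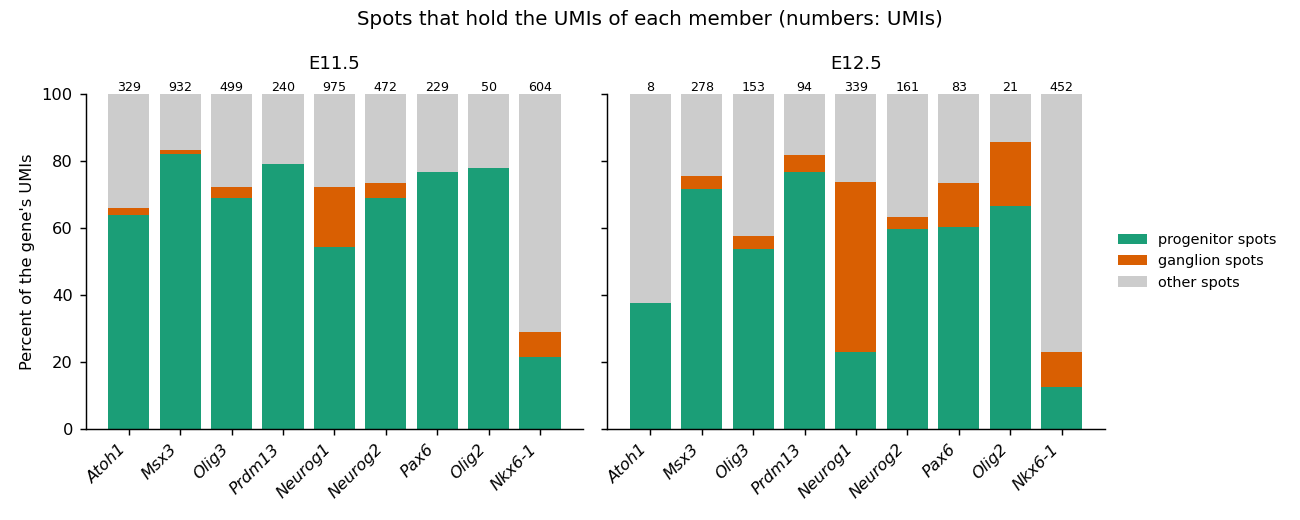
Percent of the UMIs of each gene that lay in progenitor spots, ganglion spots and all other spots at E11.5 (left) and E12.5 (right); the number above each bar is the gene's UMIs. Most bars are mainly progenitor, the Neurog1 bar turns mainly ganglion at E12.5 (50.7%), and the Nkx6-1 bars lie mostly in other spots.

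Some members shared progenitor spots far more often than others. Among 36 pairs of genes, Atoh1 and Olig3 had the highest correlation over progenitor spots at E11.5. Of the 47 progenitor spots with Atoh1, 39 (83.0%) also held Olig3, against 36.5% of all progenitor spots, and Pearson's r of log2(UMIs per 10000 + 1) was 0.62 over 255 spots. Msx3 was in 43 of the 47 (91.5%), against 66.7% of all progenitor spots. All 3 Atoh1 progenitor spots at E12.5 held Olig3, and all 3 also held Msx3, Prdm13, Neurog1 and Neurog2. Correlations are given as descriptions, because spots of 1 section share a library and differ in depth. Prdm13 sat with Msx3 at both stages, in 93 of 102 Prdm13 spots (91.2%) at E11.5 and 36 of 39 (92.3%) at E12.5, against 66.7% and 57.5% of all progenitor spots, with r of 0.49 and 0.62. Atoh1 and Prdm13, both dorsal, did not track each other at E11.5 (21 of 47 Atoh1 spots, 44.7%, against 40.0% of all, r of -0.08).

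Olig2 shared 14 of its 25 progenitor spots with Nkx6-1 at E11.5 (56.0% against 20% of all, r of 0.30) and 6 of 6 at E12.5 (r of 0.55). Of the dorsal genes, Atoh1, Msx3 and Prdm13 seldom shared a progenitor spot with Nkx6-1, and Olig3 did not follow them. Nkx6-1 was in 1 of 47 Atoh1 spots at E11.5 (2.13%), in 19 of 170 Msx3 spots (11.2%) and in 8 of 102 Prdm13 spots (7.84%), all below its 20% of progenitor spots. At E12.5 it was in 1 of 42 Msx3 spots (2.38%) and 2 of 39 Prdm13 spots (5.13%), against 24.7% of all. The correlation of Msx3 with Nkx6-1 was -0.36 at E11.5 and -0.45 at E12.5. Olig3 shared 17 of its 93 spots with Nkx6-1 at E11.5 (18.3%) and 12 of 20 at E12.5 (60%), where it was also in 6 of 6 Olig2 spots. Taking the sets whole, 20.5% of progenitor spots with a dorsal gene held a ventral one at E11.5 (41 of 200, 95% interval 15.1 to 26.8) and 22.0% at E12.5 (13 of 59, 12.3 to 34.7). Both intervals include the share of all progenitor spots with a ventral gene, 24.3% and 24.7%. Spots with a dorsal gene are themselves 78.4% and 80.8% of all progenitor spots, so this comparison cannot show whether the sets lie apart. From the ventral side, 66.1% and 72.2% of progenitor spots with a ventral gene held a dorsal one, against 78.4% and 80.8% of all progenitor spots. Over all spots, 24.1% and 26.8% of those with a dorsal gene held a ventral one, against 22.5% and 19.1% of all. Olig3 was in 48 of the 105 spots with both sets at E11.5 and in 29 of the 41 at E12.5. With Olig3 left out of the dorsal set, 78 and 15 spots held both sets. With spots thinned to 10000 UMIs these 24.1% and 26.8% were 14.7% and 12%, so their size depends on depth.

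The broad genes were found beside both Msx3 and Nkx6-1, at shares that differed by gene and section. At E11.5 Neurog1 was in 36 of 51 Nkx6-1 spots (70.6%) and 76 of 170 Msx3 spots (44.7%), against 53.7% of all. Neurog2 was in 96 of 170 Msx3 spots (56.5%) and 30 of 51 Nkx6-1 spots (58.8%), against 54.9% of all. At E12.5 Neurog2 was in 24 of 42 Msx3 spots (57.1%) but in 4 of 18 Nkx6-1 spots (22.2%), against 45.2% of all. Pax6 and Neurog2 shared 66 spots at E11.5 (r of 0.14) and 18 at E12.5 (r of 0.40).

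**Figure D3:**
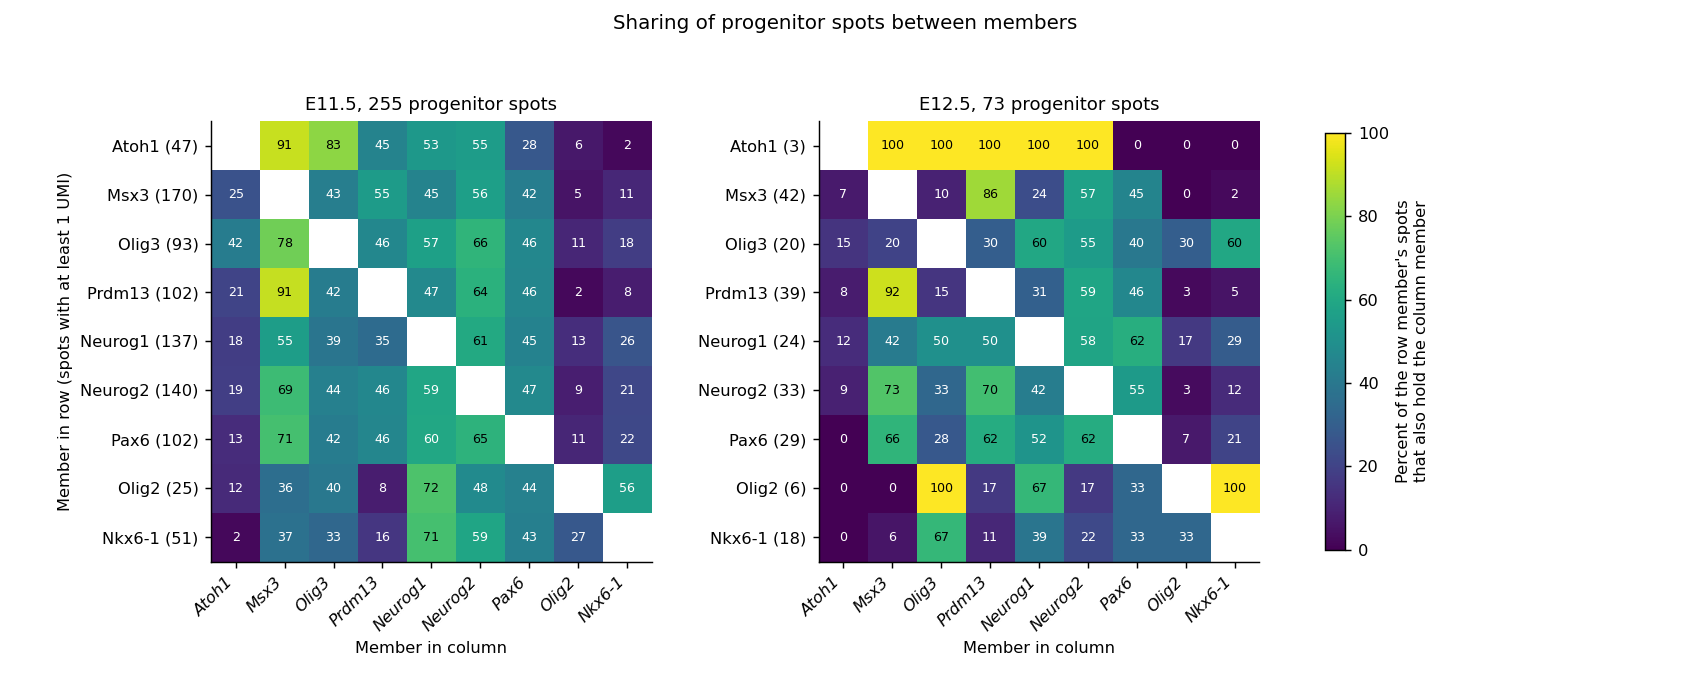
Percent of the progenitor spots holding the gene of the row that also hold the gene of the column, at E11.5 (left, 255 spots) and E12.5 (right, 73 spots); the number of spots with the row gene is in brackets. Atoh1 with Olig3, Prdm13 with Msx3 and Olig2 with Nkx6-1 are high, Msx3 with Nkx6-1 is low, and Olig3 moves from Msx3 at E11.5 (78%) towards Nkx6-1 at E12.5 (60%).

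The company of Olig3 differed between the sections. At E11.5, 93 progenitor spots held Olig3, and 78.5% of them (68.8 to 86.3) also held Msx3, 41.9% (31.8 to 52.6) Atoh1 and 44.1% (33.8 to 54.8) Barhl1, a gene of the neurons that Atoh1 progenitors give. At E12.5, 20 progenitor spots held Olig3, of which 20% (5.73 to 43.7) held Msx3 15.0% (3.21 to 37.9) Atoh1 and 10.0% (1.24 to 31.7) Barhl1. Ventral genes went the other way. Nkx6-1 was in 18.3% (11 to 27.6) of Olig3 progenitor spots at E11.5 and in 60% (36.1 to 80.9) at E12.5. Nkx2-2, which marks the progenitors next to the floor plate, was in 14% (7.66 to 22.7) and 50% (27.2 to 72.8). Sim1, a gene of the V3 neurons from those progenitors, was in 9.68% (4.52 to 17.6) and 35.0% (15.4 to 59.2). In E11.5 progenitor spots without Olig3, 59.9% held Msx3, 4.94% Atoh1, 8.64% Barhl1, 21.0% Nkx6-1, 8.02% Nkx2-2 and 4.32% Sim1. In E12.5 progenitor spots without Olig3, 71.7% held Msx3, 0% Atoh1, 11.3% Barhl1, 11.3% Nkx6-1, 1.89% Nkx2-2 and 1.89% Sim1. The intervals of the 2 sections do not overlap for Msx3, Barhl1, Nkx6-1 and Nkx2-2, and do overlap for Atoh1, Olig2 and Sim1. Spots of 1 section are no replicates, so the difference was not tested. Olig3 is known both in dorsal bands and in cells beside the floor plate, and at E12.5 the 4 spots with Msx3 and the 12 with Nkx6-1 each carried 47.6% of the 82 Olig3 UMIs in progenitor spots.

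Atoh1 and Olig3 shared spots more than any other pair of dorsal genes at E11.5 by correlation, so the 250 bases upstream of their starts are shown (RefSeq, GRCm38.p6, plus strand for both genes), at chr6:64728875-64729124 for Atoh1 and chr10:19356289-19356538 for Olig3. Capitals mark the E-box CANNTG, the 6-base site bound by bHLH factors such as Atoh1, Neurog1, Neurog2, Olig2 and Olig3. Both strands are covered, as the motif reads the same on each.
Atoh1: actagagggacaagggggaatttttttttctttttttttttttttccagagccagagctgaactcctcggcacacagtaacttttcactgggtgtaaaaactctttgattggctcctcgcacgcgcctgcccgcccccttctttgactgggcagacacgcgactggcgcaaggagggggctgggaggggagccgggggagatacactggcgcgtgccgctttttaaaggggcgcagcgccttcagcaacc
Olig3: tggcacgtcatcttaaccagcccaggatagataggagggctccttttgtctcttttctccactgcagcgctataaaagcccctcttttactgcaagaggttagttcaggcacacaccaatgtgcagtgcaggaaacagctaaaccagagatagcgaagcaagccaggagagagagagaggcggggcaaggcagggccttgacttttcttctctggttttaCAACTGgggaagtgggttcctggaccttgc
The Olig3 window holds 1 E-box and the Atoh1 window 0. The same windows of Msx3, Prdm13, Neurog1, Neurog2, Olig2 and Nkx6-1 hold 0, and 1 of the 2 Pax6 windows holds 1. Of 32851 mouse promoter windows of this length, 66.2% hold at least 1.

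**Figure D4:**
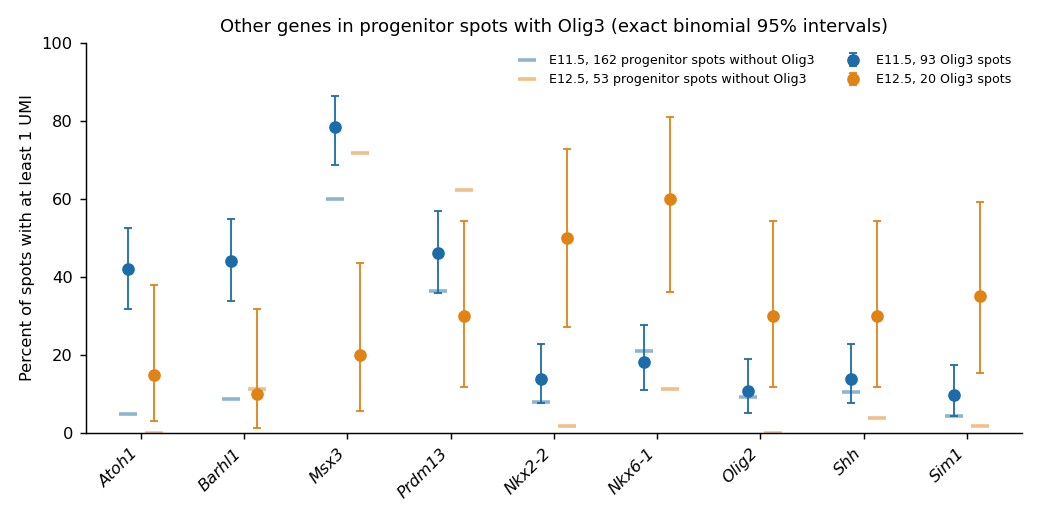
Percent of progenitor spots that hold at least 1 UMI of the gene on the axis, among spots with Olig3 (points, with exact binomial 95% intervals) and without Olig3 (short lines), at E11.5 and E12.5. Msx3 and Atoh1 are lower and Nkx2-2, Nkx6-1, Olig2, Shh and Sim1 higher in the E12.5 Olig3 spots, with the widest intervals for the 20 spots of E12.5.

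The genes most alike to each member were named by mean r over spots at E11.5 (1561 spots) and E12.5 (1014 spots). Atoh1 was most like Olig3 (r of 0.64 and 0.34). Among the genes most like Msx3 were Mir9-3hg, the host transcript of a neural microRNA (0.67 and 0.70), and Hes5 (0.67 and 0.66). Prdm13 was most like Msx3 (0.60 and 0.71). Pax6 and Neurog2 had Hes5 and Mir9-3hg among their first 3. Neurog1 was most like Prdm12 (0.50 and 0.58), with r of 0.45 and 0.49 in progenitor spots alone. Olig2 was most like Fgfbp3 (0.37 and 0.42), and Olig3 like Rfx4 (0.37 and 0.48). Nkx6-1 had the weakest likeness of the 9, with Ppp1r1a first (0.21 and 0.42). In progenitor spots alone Nkx6-1 was closer to Spon1, a secreted protein of the floor plate (r of 0.58 over 255 spots and 0.67 over 73).

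To set dorsal against ventral members gene by gene, spots with at least 2 UMIs of the dorsal set and none of the ventral set (dorsal-only) were compared with spots of the opposite kind (ventral-only). UMIs were summed per section and class, and edgeR's quasi-likelihood test was fitted with the section as block over 12 sums. The E11.5 section had 194 dorsal-only and 94 ventral-only spots, the E12.5 section 61 and 78, and the E13.5 section 0 and 15, so the contrast rests on the first 2 sections. The 6 genes that choose the spots are left out of all counts. Of 13265 genes tested, 560 (4.22%) were higher and 942 (7.1%) lower in dorsal-only spots at an adjusted p under 0.05, and in 1490 of these 1502 E11.5 and E12.5 moved alike. The spread tested is that between class sums of 3 sections, not between embryos. Only 5 of the 12 sums are of the 2 classes compared, and the others also supply the spread. Those others are spots with both sets, progenitor spots in no other class, and all remaining spots. With the 5 sums alone, 1 residual degree of freedom was left, and 338 genes were higher and 503 lower. How many genes pass also rests on 1 section. Without E11.5 there were 1078 higher and 1495 lower, without E12.5 281 and 389, and with no section block 78 and 151.

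Of the broad genes, Neurog2 was higher in dorsal-only spots, at 49.3 against 6.91 CPM at E11.5 and 67.5 against 2.91 CPM at E12.5 (log2 fold 3.63, SE 0.44, edgeR adjusted p 0.000818). Pax6 was higher too, at 21.6 against 3.64 CPM and 21.1 against 1.66 CPM (log2 fold 3.04, SE 0.38, edgeR adjusted p 0.000947). Neurog1 stood at 43.7 against 24.4 CPM and 35.4 against 20.4 CPM and did not pass (log2 fold 0.82, SE 0.37, edgeR adjusted p 0.178).

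The dorsal lists moved with the dorsal set. Of 13 dorsal progenitor genes tested, 8 were higher and 1 lower, with a median log2 fold of 3.53 beside -0.02 over all genes. Pax3 stood at 46.2 against 2.55 CPM at E11.5 and 64.7 against 0.832 CPM at E12.5. Wnt1, made by the roof plate, had 59 UMIs in dorsal-only and 0 in ventral-only spots, at least 16.3-fold higher with 3 UMIs over the class as the floor. Gsx1 had 56 and 0 UMIs, at least 15.4-fold higher. Pax7, Ptf1a, Wnt3a and Zic1 also rose, and Bmp7 fell. Of 17 dorsal neuron genes, 12 were higher and 1 lower (median 3.01). Lhx2 and Lhx9, which mark the neurons of the Atoh1 band, were mainly a matter of E11.5: Lhx2 stood at 138 CPM in dorsal-only spots there and 8.86 CPM at E12.5. Lbx1 and Lmx1b, of more ventral dorsal neurons, went from 21.8 to 84.5 CPM and from 11.1 to 60.6 CPM in dorsal-only spots. The gene that fell was Foxp2, and why it fell was not tested.

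Of 11 ventral progenitor genes tested, 4 were lower in dorsal-only spots and 1 higher, with a median log2 fold of -1.70. Shh stood at 2.31 against 17.8 CPM at E11.5 and 1.36 against 31.2 CPM at E12.5, its receptor Ptch1 at 27.1 against 83.3 CPM and 45.7 against 142 CPM, and its effector Gli1 and the sulfatase gene Sulf1 were also lower. Dbx1, which marks the middle of the dorsoventral axis, was higher. Nkx2-2 and Foxa2 did not pass (edgeR adjusted p 0.183 and 0.104). Of 16 ventral neuron genes, 8 were lower and 1 higher (median -1.85). Those lower included the motor neuron genes Mnx1, Isl2, Lhx3, Lhx4 and Slc18a3, of which Slc18a3 stood at 3.15 against 77.1 CPM at E11.5 and 8.86 against 23.7 CPM at E12.5. Evx2 was the one higher.

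**Figure D5:**
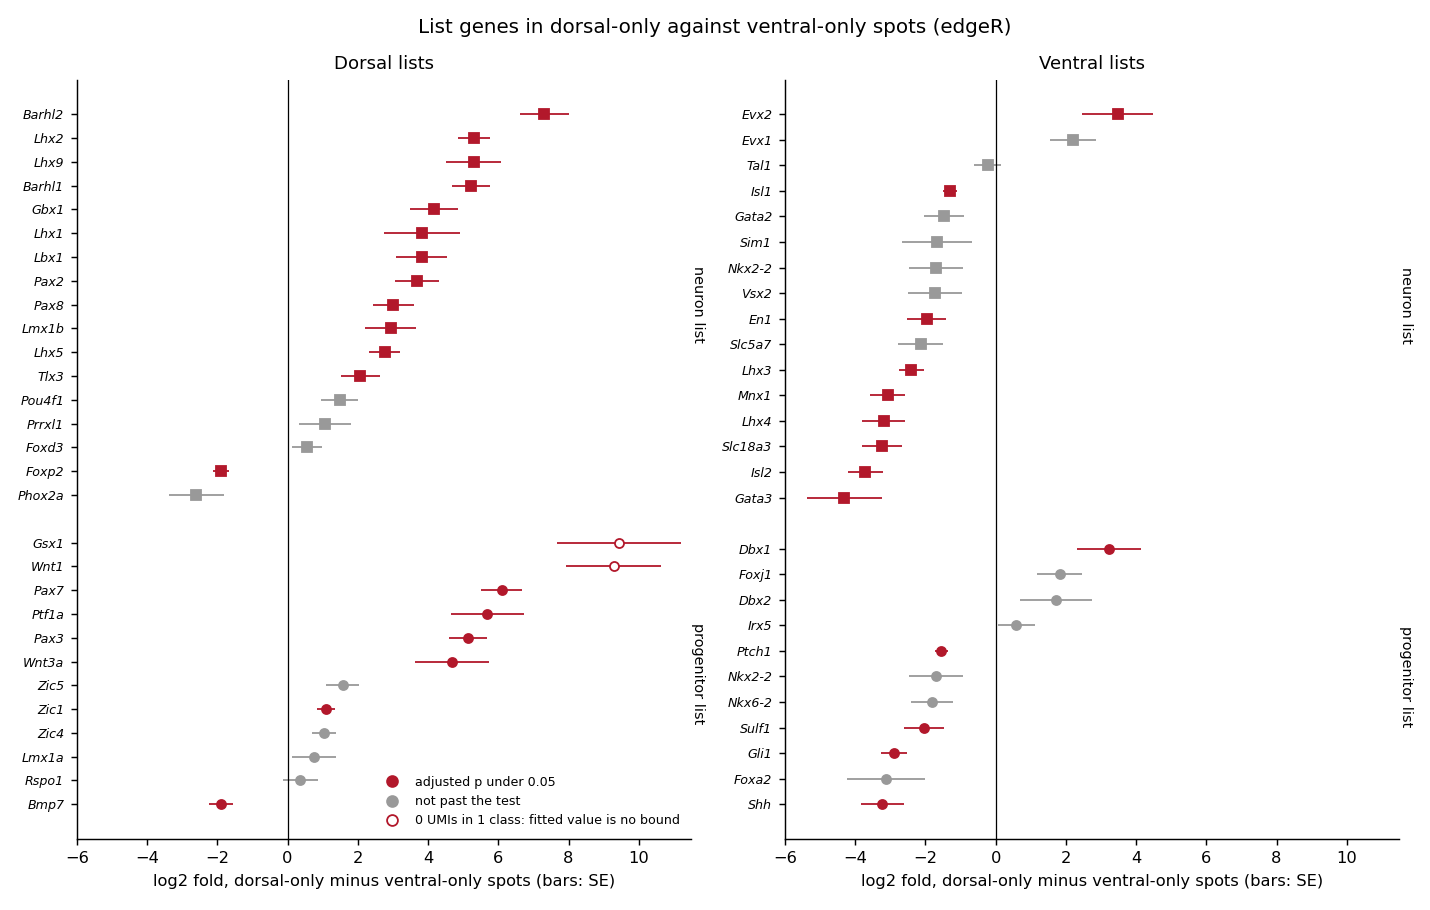
Log2 fold of dorsal (left) and ventral (right) list genes between dorsal-only and ventral-only spots, from edgeR; squares are neuron and circles progenitor genes, bars are standard errors, red marks an adjusted p under 0.05, grey marks genes that did not pass, and open symbols mark genes with 0 UMIs in 1 class. Most dorsal list genes lie right of 0 (medians 3.53 and 3.01) and most ventral ones left of it (-1.70 and -1.85).

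Among genes that passed, moved alike in both sections and had at least 100 UMIs, the largest folds towards dorsal-only spots were those of Neurod6, Barhl2, Pax7, Fgf15, Lhx2, Lhx9, Barhl1, Pax3, Robo3, Kirrel2, Gbx1 and Neurod2. Neurod6 had 114 UMIs against 0 (at least 31.4-fold), 105 of them at E12.5. Fgf15 stood at 39.7 against 0.728 CPM at E11.5 and 85.9 against 1.25 CPM at E12.5. Robo3, an axon guidance receptor of commissural neurons, stood at 454 against 33.1 CPM and 474 against 11.2 CPM. Those lower were Cstdc5, S100a8, Uts2b, Foxa1, S100a9, Agtr2, Foxf1, Rtl3, Stfa1, Fibin, Pax1 and Fxyd7. They include granulocyte genes (S100a8, S100a9, Stfa1), the sclerotome gene Pax1 and Foxf1, a gene of gut and lung mesenchyme.

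The 2 classes differed in more than the dorsoventral axis. Of the ventral-only spots, 12 of 94 at E11.5 and 4 of 78 at E12.5 were progenitor spots, against 142 of 194 and 39 of 61 dorsal-only spots, and 93 of 94 and 78 of 78 held Nkx6-1. The general progenitor list, with 8 of 11 genes higher and 1 lower, and the Hox list, with 8 of 17 higher and 1 lower, moved with the dorsal-only spots. The 7 cartilage genes summed to 790 CPM in ventral-only and 179 CPM in dorsal-only spots at E11.5, and to 2570 and 225 CPM at E12.5. At E11.5 the sums of the heart, liver and muscle lists went the other way. They summed to 1241, 2093 and 543 CPM in dorsal-only and to 340, 230 and 151 CPM in ventral-only spots. In the fit, 2 of 7 heart genes were higher and 0 lower in dorsal-only spots. For liver these were 1 (Ttr) and 3 (Afp, Alb and Serpina1a) of 6 genes, and for muscle 0 and 1 of 8. Ttr alone made up most of the liver sum in E11.5 dorsal-only spots, so that sum does not stand for the liver genes as a group. The 11 sensory ganglion genes summed to 256 and 120 CPM at E11.5 and to 357 and 266 CPM at E12.5. Of these lists, 5 of 7 cartilage genes tested, 6 of 11 sensory ganglion genes and 5 of 7 neural crest and Schwann cell genes were lower in dorsal-only spots, and their part in the contrast was not tested. Without the spots high for heart, liver, muscle or cartilage genes, 528 genes were higher and 1084 lower, 444 and 817 of them shared with the full fit. Ttr, a carrier protein of liver and of choroid plexus, was higher in dorsal-only spots with 9783 UMIs against 139 at E11.5 but had 0 against 18 at E12.5, and in E11.5 spots with Atoh1 it stood at 3144 CPM against 71.9 CPM elsewhere.

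Within progenitor spots alone only E11.5 had enough ventral-only spots (12) to enter the fit. The ventral-only arm was thus 1 sum of 1 section, assumed to vary like the sums of the other classes, which supply the spread, so its p-values have no replicate check of that arm. Of 12457 genes tested, 6 (0.0482%) were higher and 65 (0.522%) lower. The dorsal progenitor and dorsal neuron lists had 0 of 14 and 0 of 17 genes past the test, with median log2 folds of 3.68 and 3.31. Of 13 ventral progenitor genes, Foxa2, Ptch1, Shh and Sulf1 were lower. Ptch1 had a log2 fold of -1.78 (edgeR adjusted p 0.0215) and Shh of -4.96 (0.0184). Ntn1, a guidance cue of the floor plate, also had a lower level (log2 fold -4.00). The 12 ventral-only spots differed in more than floor plate genes. The granulocyte genes S100a9 and S100a8 stood at 400 and 271 CPM in them. In E11.5 dorsal-only progenitor spots these stood at 1.70 and 0.34 CPM. Dcn and Lum stood at 453 and 182 CPM against 18.0 and 19.4 CPM. The part of such genes in this contrast was not tested. Neurog2 and Pax6 had log2 folds of 1.42 (SE 0.63) and 0.70 (SE 0.59) in this fit, smaller than over all spots, and neither passed. Their higher level in dorsal-only spots was thus not shown within progenitor spots.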

How the data were processed

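The deposited values are UMI counts per gene and spot. Per the file headers, the software was Space Ranger 1.2.0. The submitters' processing notes name Space Ranger, STAR and mm10. Each section has its own deposited matrix. Spots under 1000 UMIs were left out (2, 0 and 5), which left 1008 to 80874 UMIs per spot. Of 194 listed genes, 193 were found by symbol. The members and gene lists were chosen with earlier results of these data known, and the ganglion class was added after seeing the data. Neither the place of a spot nor an image of the tissue was used, so dorsal and ventral refer to genes, not places.

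CPM were computed from summed UMIs with exact Poisson 95% intervals, ratios with exact conditional binomial intervals and shares with exact (Clopper-Pearson) binomial intervals, all for counting error only. Classes of at least 5 spots per section were summed and fitted with edgeR 4.0.16 (R 4.3.3, TMM scaling, quasi-likelihood, section as block, Benjamini-Hochberg adjustment). DESeq2 1.42.0 was an alternative. The section numbers name samples and pair none, so the block is the section itself. On simulated data for the dorsal-only against ventral-only comparison (12942 genes), 98% of genes changed 4-fold and 25% of genes changed 2-fold were called, with 5 false calls. All simulated sections and classes shared a common profile and a fixed spread, and changed genes were drawn only from those with many UMIs. These values therefore do not carry over to sparse genes or to classes that differ in tissue. Named genes were the members, list genes that passed, up to 12 genes per direction by fold with at least 100 UMIs, and up to 3 genes most alike to each member. Likeness was Pearson's r of log2(UMIs per 10000 + 1) over spots, among genes with at least 50 UMIs and r of at least 0.2 in both sections. Promoter windows are from RefSeq, GRCm38.p6, matched by symbol. Intervals came from scipy 1.17.1 and figures from matplotlib 3.10.9, under Python 3.11.15. Some genes that these rules name, or that helped define a class, are not reported here by name; they stay in the counts and medians of their lists.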

Additional observations from a re-analysis of the deposited data

How the results depend on the processing

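Of the E12.5 to E11.5 ratios, none whose interval excludes 1 passed to the other side of 1. The Neurog2 ratio in progenitor spots, 0.982, was 1.17 (0.895 to 1.52) with a progenitor threshold of 4 UMIs per 10000. Whether an interval in progenitor spots excludes 1 changed with this threshold for some genes. At 1 UMI per 10000, those of Nkx6-1 (0.894 to 1.53) and the ventral set (0.907 to 1.47) included 1. Those of Msx3 (0.639 to 0.864) and Olig3 (0.620 to 0.963) then excluded 1, as did that of Olig3 at 4 UMIs per 10000 (0.489 to 0.938). Of 55 alternatives for the levels over sections, 54 stayed within the counting interval. The exception was the dorsal set in progenitor spots, whose E12.5 to E11.5 ratio was 0.684 in place of 0.785 with a progenitor threshold of 1 UMI per 10000. Of 48 for shared spots, 26 moved: with at least 2 UMIs of each set, 9.66% of dorsal set spots at E11.5 and 17.3% at E12.5 held the ventral set, and thinned to 10000 UMIs 14.7% and 12%. The counts of 560 genes higher and 942 lower in dorsal-only spots stayed within 1.5 times under DESeq2 (649 and 957), upper-quartile scaling, no filter on low counts and 5000 UMIs per spot. With only dorsal-only and ventral-only sums they were 338 and 503, with progenitor spots only 6 and 65, and with 1 UMI to choose a spot 529 and 517, so that more were higher than lower. With no replicate block (no section term) they were 78 and 151, all of them among the 560 and 942. Leaving out each section in turn gave 281 to 1078 higher and 389 to 1495 lower, with 1 residual degree of freedom and a dorsal-only arm of 1 sum, assumed to vary like the others, without E11.5 or E12.5. The causes of these changes were not tested. With Olig3 left out of the dorsal set, 576 genes were higher and 1096 lower. Choosing ventral spots by Olig2 alone could not be fitted. The few UMIs of Olig2 in every section, and of all members but Nkx6-1 at E13.5, limit the precision of their values.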

Other observations

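In the E13.5 section, Nkx6-1 was most like the smooth muscle genes Actg2 (r of 0.31 over 1360 spots, 667 UMIs) and Myh11 (r of 0.31, 1316 UMIs), followed by Crispld2 (r of 0.26) and Ifitm1 (r of 0.26). Ganglion spots held 30 of its 97 UMIs there, at 11.2 CPM against 3.37 CPM over all E13.5 spots. In E12.5 ganglion spots Nkx6-1 stood at 19.5 CPM. The E13.5 spots with Nkx6-1 held Myh11 at 309 CPM against 29.9 CPM in the other spots, and Actg2 at 153 CPM against 15.4 CPM. These genes were chosen after their values were seen, the correlations are descriptions over spots of 1 section, and they were not tested.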
